A study of Mus musculus with 6 samples.

Results

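Whole kidneys of KSPAPN mice, which overexpress adiponectin in kidney epithelium, were compared with Control kidneys for 10 genes that report on blood vessels and on vascular endothelial growth factor (VEGF) signalling. The genes were the ligand *Vegfa* and 9 genes of endothelial cells, *Pecam1*, *Cdh5*, *Kdr*, *Flt1*, *Emcn*, *Ehd3*, *Plvap*, *Tek* and *Eng*. They were taken by symbol from a fixed list, and all 10 were found among the 54532 genes of the deposited table and among the 16017 genes with enough counts for testing. None of the 10 passed the test between the groups at an adjusted p under 0.05. The level of *Vegfa* was lower in every KSPAPN library than in any Control library, and the libraries of the other 9 genes overlapped.

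Control mice carried KsprtTA alone, in which the kidney-specific Ksp promoter drives the doxycycline-dependent activator rtTA in epithelium along the nephron, proximal tubule through collecting duct, and the deposited labels call them WT. KSPAPN mice carried KsprtTA together with TRE-adiponectin, so that rtTA switches on adiponectin when doxycycline is given. All were male C57BL/6 mice on normal chow, all received doxycycline at 600 mg/kg chow for 4 days, and their age is not given in the sources used here. Each group had 3 libraries, each library was a pool of 3 mice, and the spread between libraries is therefore a spread between pools, which is smaller than one between single animals would be.

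Counted reads came to between 17183358 and 20871173 in each library, and the 10 genes had between 373 and 5380 counts each in a library. The label of the groups was checked on the overexpressed gene. *Adipoq* had 2, 0 and 2 counts in the Control libraries against 24629, 17483 and 26811 in the KSPAPN libraries, an increase of 13.73 on the log2 scale (SE 0.29, adjusted p = 2.97e-09 by edgeR's quasi-likelihood test). The tissue in the labels is kidney, but their extraction text mentions liver. Markers of proximal tubule summed to between 18600 and 36500 FPKM (fragments scaled by gene length and library size) per library, and hepatocyte markers to between 44.0 and 149 FPKM. Most of the former was *Kap*, at 15500 to 32700 FPKM, and nearly all of the latter was *Ttr*, at 38.3 to 145 FPKM. *Alb*, which encodes albumin, lay between 0.275 and 4.46 FPKM.

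Endothelial cells line every vessel of the kidney, and they take different forms in glomerular capillaries, peritubular capillaries, vasa recta, arteries and veins. Podocytes and tubular epithelium secrete VEGF-A, the protein of *Vegfa*, which crosses to the neighbouring endothelium and binds the receptors VEGFR2 (*Kdr*) and VEGFR1 (*Flt1*). VEGFR2 carries most of the growth and survival signal, whereas VEGFR1 binds the ligand tightly and, in its soluble form, holds it back. Adiponectin itself acts on endothelium from the circulation and is bound there by T-cadherin (*Cdh13*).

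The stretches just upstream of 5 of these genes are printed as a description of their sequences. RefSeq windows (GRCm38.p6) were matched for 7 of the 10 genes in 8 windows, since *Vegfa* has 2, and the 250 bases before each start were read 5′ to 3′ on the gene's strand. Capitals mark letters of an ETS core (CAGGAA or CCGGAA), an SP1 box (GGGCGG) or a HIF core (ACGTG), searched on both strands. The ETS core is the motif of ETS factors such as ERG and FLI1 of endothelium. Only the spellings CAGGAA and CCGGAA were counted, and other spellings with GGAA were not. Windows of 5 genes follow, 4 of them endothelial and 1 of the ligand: *Kdr* at chr5:75978456-75978705 on the minus strand, *Flt1* at chr5:147726012-147726261 on the minus strand, *Tek* at chr4:94739039-94739288 on the plus strand, *Emcn* at chr3:137340828-137341077 on the plus strand and *Vegfa* at chr17:46032378-46032627 on the minus strand.
Kdr: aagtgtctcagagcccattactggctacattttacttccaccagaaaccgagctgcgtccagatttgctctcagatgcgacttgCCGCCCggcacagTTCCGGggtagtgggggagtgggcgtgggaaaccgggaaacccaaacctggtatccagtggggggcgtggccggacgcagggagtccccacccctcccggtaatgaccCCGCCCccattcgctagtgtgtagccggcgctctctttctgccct
Flt1: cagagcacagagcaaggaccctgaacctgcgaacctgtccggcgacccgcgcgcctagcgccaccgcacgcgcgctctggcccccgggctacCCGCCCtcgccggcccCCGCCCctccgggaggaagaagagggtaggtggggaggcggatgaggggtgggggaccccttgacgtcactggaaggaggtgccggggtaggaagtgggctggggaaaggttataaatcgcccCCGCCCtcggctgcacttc
Tek: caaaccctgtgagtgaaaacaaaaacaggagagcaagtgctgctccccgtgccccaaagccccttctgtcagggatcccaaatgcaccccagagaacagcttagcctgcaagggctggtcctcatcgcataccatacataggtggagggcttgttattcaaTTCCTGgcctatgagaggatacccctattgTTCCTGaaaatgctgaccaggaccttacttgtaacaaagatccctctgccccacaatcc
Emcn: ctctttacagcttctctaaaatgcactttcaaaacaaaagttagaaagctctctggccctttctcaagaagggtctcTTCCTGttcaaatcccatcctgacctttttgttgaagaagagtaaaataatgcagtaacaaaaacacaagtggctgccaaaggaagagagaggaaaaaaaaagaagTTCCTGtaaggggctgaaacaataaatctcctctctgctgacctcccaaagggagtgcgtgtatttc
Vegfa: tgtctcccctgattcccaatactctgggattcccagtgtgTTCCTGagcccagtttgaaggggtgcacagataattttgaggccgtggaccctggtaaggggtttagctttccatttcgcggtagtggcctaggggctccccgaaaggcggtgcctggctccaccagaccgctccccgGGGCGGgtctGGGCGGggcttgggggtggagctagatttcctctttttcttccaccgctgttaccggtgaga

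The receptors differed in these letters. The window of *Kdr* held 1 ETS core, 153 bases before the start, and SP1 boxes at 166 and 45 bases. The window of *Flt1* held 3 SP1 boxes, at 158, 142 and 19 bases, and neither CAGGAA nor CCGGAA on either strand. It does hold GGAA in other spellings, as in taggaagt, which were not counted. *Tek* held ETS cores at 89 and 59 bases and *Emcn* at 173 and 67 bases, and neither held an SP1 box. The first window of *Vegfa* held an ETS core at 210 bases and SP1 boxes at 72 and 62 bases. The HIF core was found in its second window alone, 211 bases before an internal start and beside an SP1 box at 158 bases. That window, chr17:46025164-46025413, lies inside the gene and not upstream of it. In all, 4 of the 7 genes had an ETS core in the spellings counted, 3 an SP1 box and 1, *Vegfa*, a HIF core inside the gene. The windows of *Eng* and *Ehd3*, which are not printed, held no match of any kind. That of *Ehd3*, chr17:73804591-73804840, also lies inside the annotated gene, which starts at 73804134. Of the 32851 windows of the same length in the table, 35.1% held an ETS core, 32.7% an SP1 box and 16.6% a HIF core, so that none of these letters is rare. The matches describe the sequence and are not known binding sites.

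*Vegfa* (ENSMUSG00000023951, chromosome 17, 46016993 to 46032369 on GRCm38), the ligand, was at 64.5, 64.0 and 69.4 FPKM in the Control libraries and at 53.2, 56.6 and 60.6 FPKM in the KSPAPN libraries. All 3 KSPAPN libraries were below all 3 Control libraries, and *Vegfa* was the only one of the 10 genes whose groups did not overlap. The means were 66.0 ± 3.0 and 56.8 ± 3.7 FPKM (SD, n = 3). The log2 fold change fitted to the counts was -0.21 (SE 0.09), that is a level 0.864 times that of Control with a 95% interval from 0.753 to 0.992. The unadjusted p was 0.0399 and the adjusted p 0.242 by edgeR over all genes tested, and 0.0426 and 0.238 by DESeq2, so that the difference did not pass the test. Of all genes tested, 13.1% were lower in every KSPAPN library than in any Control library and 11.4% were higher in every one, which is the background for this 1 gene of 10. Leaving out single libraries moved the log2 fold change of *Vegfa* between -0.26 and -0.15 and its adjusted p between 0.335 and 0.503.

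**Figure D1:**
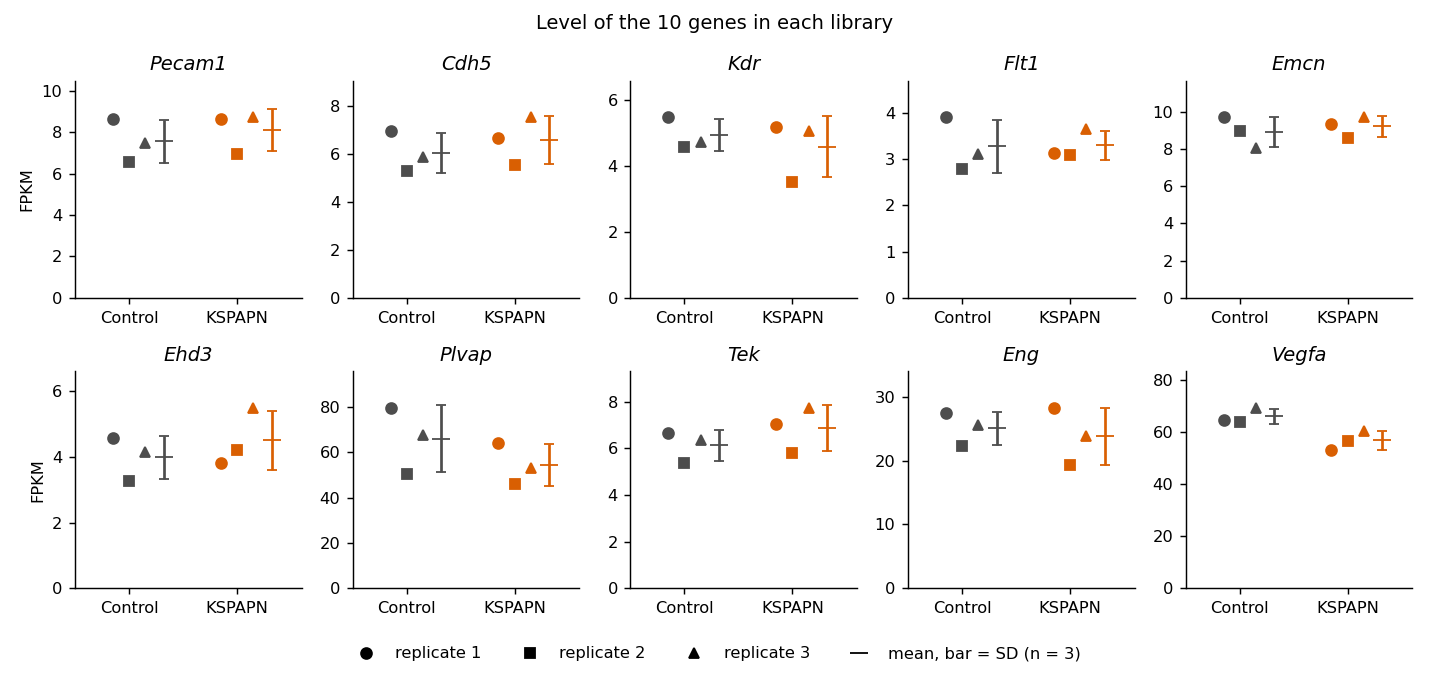
FPKM of each of the 10 genes (vertical axis, from 0) in Control and KSPAPN. Points are the libraries, marked by replicate number, and bars give the mean and SD of 3 libraries. The 3 KSPAPN libraries of *Vegfa* sit between 53.2 and 60.6 FPKM, below the Control libraries at 64.0 to 69.4 FPKM, and the groups overlap for the other 9 genes.

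The means of the 2 receptors of VEGF-A lay within the spread of their libraries. *Kdr* (ENSMUSG00000062960, chromosome 5, 75932827 to 75978458), which encodes VEGFR2, was at 5.48, 4.59 and 4.74 FPKM in Control and at 5.19, 3.51 and 5.07 FPKM in KSPAPN. Its lowest library was KSPAPN replicate 2, and the other libraries of KSPAPN lay inside the range of Control. The means were 4.94 ± 0.475 and 4.59 ± 0.938 FPKM, and the fitted log2 fold change was -0.097 (SE 0.15, adjusted p = 0.779 by edgeR), or 0.067 without KSPAPN replicate 2. *Flt1* (ENSMUSG00000029648, chromosome 5, 147561604 to 147726011), which encodes VEGFR1, was at 3.90, 2.78 and 3.11 FPKM in Control and at 3.13, 3.08 and 3.65 FPKM in KSPAPN. The KSPAPN libraries all lay within the range of Control. The means were 3.27 ± 0.576 and 3.29 ± 0.313 FPKM, and the fitted log2 fold change was 0.015 (SE 0.13, adjusted p = 0.971 by edgeR). Its sign turned when any of Control replicate 2, Control replicate 3 or KSPAPN replicate 3 was left out (-0.089, -0.016 and -0.064). The 95% interval of the fold ran from 0.742 to 1.18 for *Kdr* and from 0.825 to 1.24 for *Flt1*. Changes within these bounds remain compatible with the counts of 3 pools a group.

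*Tek* (ENSMUSG00000006386, chromosome 4, 94739289 to 94874976) encodes TIE2, the receptor through which angiopoietins keep vessels stable. It was at 6.66, 5.37 and 6.36 FPKM in Control and at 7.06, 5.79 and 7.75 FPKM in KSPAPN. The upper KSPAPN libraries were above all Control libraries and KSPAPN replicate 2 was below 2 of them, so the groups overlapped. The means were 6.13 ± 0.676 and 6.87 ± 0.993 FPKM, and the fitted log2 fold change was 0.17 (SE 0.14, adjusted p = 0.546 by edgeR), with a 95% interval of the fold from 0.913 to 1.39.

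*Eng* (ENSMUSG00000026814, chromosome 2, 32646595 to 32682669) encodes endoglin, a coreceptor of endothelium for BMP9 and TGF-β. It was at 27.4, 22.3 and 25.6 FPKM in Control and at 28.3, 19.3 and 23.9 FPKM in KSPAPN, so that the highest and the lowest library both belonged to KSPAPN. The means were 25.1 ± 2.58 and 23.8 ± 4.46 FPKM, and the fitted log2 fold change was -0.065 (SE 0.14, adjusted p = 0.846 by edgeR). The sign turned with total counts as the only scaling (0.0085) and with the trend against GC content and length removed (0.037). *Eng* also shares 61 exon bases with *Fpgs* on the opposite strand, and *Fpgs* had between 863 and 1639 counts in a library. Whether the counting used strand is not given in the sources used here, so reads in the shared bases cannot be assigned.

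The junction and adhesion genes of endothelium were slightly higher in mean in KSPAPN, within the spread of the libraries. *Pecam1* (ENSMUSG00000020717, chromosome 11, 106654217 to 106750628), which encodes the adhesion molecule CD31, was at 8.64, 6.56 and 7.46 FPKM in Control and at 8.62, 6.92 and 8.72 FPKM in KSPAPN. *Cdh5* (ENSMUSG00000031871, chromosome 8, 104101625 to 104144511), which encodes VE-cadherin of adherens junctions, was at 6.97, 5.31 and 5.88 FPKM in Control and at 6.67, 5.56 and 7.54 FPKM in KSPAPN. In both genes the lowest library of each group was replicate 2. The mean of *Pecam1* was 7.56 ± 1.04 against 8.09 ± 1.01 FPKM, and the fitted log2 fold change was 0.11 (SE 0.13, adjusted p = 0.715 by edgeR). The mean of *Cdh5* was 6.05 ± 0.845 against 6.59 ± 0.995 FPKM, and the fitted log2 fold change was 0.13 (SE 0.15, adjusted p = 0.686 by edgeR). As *Pecam1* and *Cdh5* are made by endothelium of all vessels, their level in whole kidney follows both the number of endothelial cells and the RNA of each, and in bulk RNA fewer cells of a type and less RNA per cell cannot be told apart.

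The remaining genes mark specialised capillaries. *Emcn* (ENSMUSG00000054690, chromosome 3, 137341067 to 137432185) encodes endomucin, a sialomucin of capillaries and veins, and was at 9.70, 8.94 and 8.06 FPKM in Control and at 9.32, 8.60 and 9.69 FPKM in KSPAPN. Its means of 8.90 ± 0.82 and 9.20 ± 0.555 FPKM went with a fitted log2 fold change of 0.055 (SE 0.10, adjusted p = 0.814 by edgeR), which was -0.034 with the GC and length trend removed. The 95% interval of the fold, from 0.89 to 1.21, was narrow beside those of the other endothelial genes.

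*Ehd3* (ENSMUSG00000024065, chromosome 17, 73804134 to 73832094), an endocytic gene that in kidney marks glomerular capillaries, was at 4.57, 3.28 and 4.14 FPKM in Control and at 3.80, 4.20 and 5.50 FPKM in KSPAPN. The highest library was KSPAPN replicate 3 and the lowest Control replicate 2, with the other 4 close together. The means were 3.99 ± 0.655 and 4.5 ± 0.886 FPKM, and the fitted log2 fold change was 0.18 (SE 0.16, adjusted p = 0.613 by edgeR), with a range from 0.0097 to 0.30 with each library left out. Markers of podocytes, the neighbours of this endothelium across the glomerular filter, shared with *Ehd3* the lowest library, Control replicate 2, and the highest, KSPAPN replicate 3, and differed from it in the order of the other 4. All 8 had a higher fitted level in KSPAPN, with a median log2 fold change of 0.19, and their summed level was 43.7 to 66.6 FPKM in Control and 61.2 to 83.5 FPKM in KSPAPN. The part of the amount of glomeruli in the libraries in the values of *Ehd3* was not tested.

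*Plvap* (ENSMUSG00000034845, chromosome 8, 71497765 to 71511752) encodes the protein of diaphragms that span the openings of peritubular capillaries and ascending vasa recta, and adult glomerular capillaries largely lack it. It was at 79.8, 50.6 and 67.8 FPKM in Control and at 64.3, 46.0 and 53.3 FPKM in KSPAPN, an overlap of the groups with a wide spread inside each. The means were 66.1 ± 14.7 and 54.5 ± 9.22 FPKM, and the log2 fold change of -0.27 (SE 0.17, adjusted p = 0.429 by edgeR) was the largest of the 10 in size. It was -0.039 once the trend against GC content and length was removed, -0.11 without Control replicate 1 and -0.43 without Control replicate 2.

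**Figure D2:**
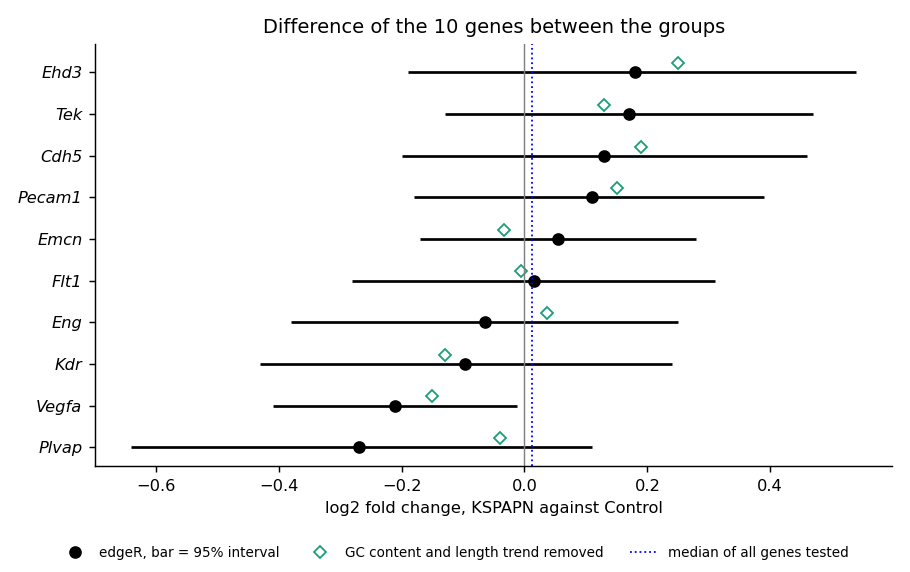
Log2 fold change of KSPAPN against Control (horizontal axis) for the 10 genes, ordered by size, with 95% intervals (bars), the values after the GC and length trend was removed (open diamonds) and the median of all genes tested (dotted line). The interval of *Vegfa*, from -0.41 to -0.012, is the only one that leaves out 0, and no gene passes the adjusted test.

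As a group the 10 genes showed no common direction. The fitted level was higher in KSPAPN for 6 and lower for 4, with a median log2 fold change of 0.035, beside 51.9% higher and a median of 0.012 over all genes tested. The 9 endothelial genes divided into 6 higher and 3 lower, with a median of 0.055 and a mean of 0.025. At an adjusted p under 0.05 edgeR called 0 of the 10, with 63 genes (0.393%) called higher and 361 (2.25%) called lower among all genes tested, and DESeq2 also called 0. At an unadjusted p under 0.05, edgeR and DESeq2 both gave *Vegfa* alone, beside 7.52% of all genes on the higher and 11.2% on the lower side. Of all genes at that unadjusted p, 40.2% were higher, against 62.7% with total counts as the only scaling and 50.2% with the GC and length trend removed. *Vegfa* had no unadjusted p under 0.05 in either of these fits.

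The range of the libraries inside each group was set beside the difference between the groups. For 9 of the 10 genes the range of log2 CPM (counts scaled to the size of the library) inside Control exceeded the fold change between the groups, and the same 9 exceeded it inside KSPAPN. The exception was *Vegfa*, with a range of 0.12 in Control and 0.17 in KSPAPN. A range of single libraries tends to exceed a difference of group means in a gene that does not change. The share over all genes was not counted, so this is a description only. Most of the 9 endothelial genes had the same lowest library inside each group. Among Control libraries replicate 2 was the lowest for 8 of the 9 endothelial genes and replicate 1 the highest for 9 of 9, and among KSPAPN libraries replicate 2 was the lowest for 8 of 9 and replicate 3 the highest for 5. Replicate 2 was the lowest of both groups for 7 genes. *Emcn* was lowest in Control replicate 3 and *Ehd3* in KSPAPN replicate 1, so not all 9 agreed. The share of all genes tested with these orders was not counted. The 9 genes share a library and its scaling, so such agreement is not that of independent measurements.

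**Figure D3:**
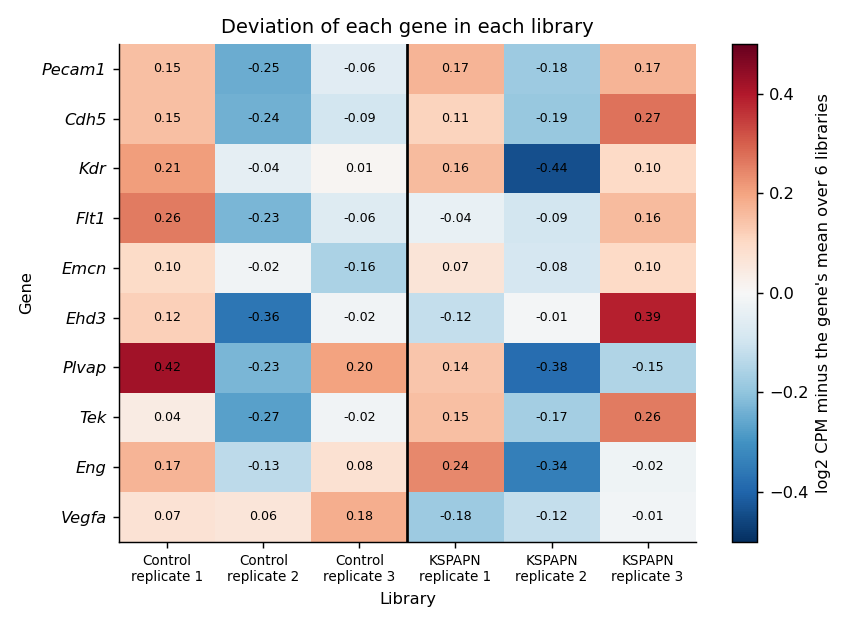
Deviation of log2 CPM from each gene's mean over the 6 libraries (colour), with genes as rows and libraries as columns. The endothelial genes average 0.18, -0.20 and -0.015 in Control replicates 1, 2 and 3 and 0.098, -0.21 and 0.14 in KSPAPN replicates 1, 2 and 3, while *Vegfa* is above its mean in every Control library and below it in every KSPAPN library.

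Averaged over the 9 endothelial genes, the deviation from the mean of the 6 libraries was 0.18, -0.20 and -0.015 on the log2 scale in Control replicates 1, 2 and 3 and 0.098, -0.21 and 0.14 in KSPAPN replicates 1, 2 and 3. The 21 other genes expressed throughout endothelium had the same order inside each group, at 0.15, -0.26 and 0.05 in Control and 0.085, -0.21 and 0.19 in KSPAPN. Mesangial, pericyte and smooth muscle markers were likewise lowest in replicate 2 of each group, at -0.28 and -0.14. Podocyte markers were at -0.58 in Control replicate 2 and at 0.43 in KSPAPN replicate 3. Several lists of vascular and glomerular cell types were thus lowest in replicate 2 of both groups, but not all. Genes listed for glomerular endothelium were at 0.095, 0.18 and 0.15 in Control replicates 1, 2 and 3, highest in replicate 2. In that list *Lpl* and *Mapt*, which other kidney cells also make, were highest in Control replicate 2. *Tbx3* and *Pi16* of the same list were lowest there. Lymphatic genes were at 0.047, 0.20 and 0.081 in KSPAPN replicates 1, 2 and 3, again highest in replicate 2. That average rests on 4 tested genes, of which *Mmrn1* had 9 to 37 counts in a library. Whether the make-up of these pools bears on the comparison was not tested beyond leaving each library out.

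Levels of different genes were compared on the FPKM scale, which divides by length. In Control the order from high to low was *Plvap*, *Vegfa*, *Eng*, *Emcn*, *Pecam1*, *Tek*, *Cdh5*, *Kdr*, *Ehd3* and *Flt1*. In KSPAPN it was the same apart from *Vegfa*, which stood above *Plvap*, and the libraries of these 2 genes overlapped in both groups. *Eng* stood apart from its neighbours in both groups, and the run from *Emcn* down through *Pecam1*, *Tek* and *Cdh5* consisted of neighbours that overlapped. *Kdr* was above *Ehd3* without overlap in Control alone, whereas *Cdh5* was above *Kdr* and *Ehd3* above *Flt1* without overlap in KSPAPN alone.

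Ratios inside a library do not depend on the scaling between libraries, and 3 of them were set up between genes with different roles. The log2 ratio of *Vegfa* to the mean of the 9 endothelial genes was 2.37, 2.73 and 2.67 in Control and 2.20, 2.56 and 2.32 in KSPAPN. The difference was -0.23 (SE 0.16), the groups overlapped, and the exact permutation test gave p = 0.2 (two-sided; 0.45 adjusted over the 3 ratios). This difference was close in size to the log2 fold change of *Vegfa* alone (-0.21, SE 0.09). Its spread was wider, as it holds the spread of the endothelial genes between libraries too. The overlap of the ratios therefore does not decide whether *Vegfa* differed.

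The ratio of *Ehd3* to *Plvap* sets glomerular against diaphragm-bearing capillaries. On the log2 scale it was -2.40, -2.22 and -2.31 in Control against -2.35, -1.73 and -1.55 in KSPAPN, a difference of 0.43 (SE 0.25, exact permutation p = 0.3, 0.45 adjusted). KSPAPN replicate 1 lay among the Control libraries and the other KSPAPN libraries above them. The difference was 0.67 without KSPAPN replicate 1, 0.27 without KSPAPN replicate 3 and 0.27 with the GC and length trend removed. The ratio of *Flt1* to *Kdr*, the binding receptor against the signalling receptor, was 0.091, -0.14 and -0.027 in Control and -0.15, 0.39 and 0.11 in KSPAPN. Its difference of 0.14 (SE 0.17, exact permutation p = 0.5, 0.5 adjusted) ranged from 0.0047 to 0.28 with each library left out. With 3 libraries against 3 this test cannot give a p under 0.1.

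**Figure D4:**
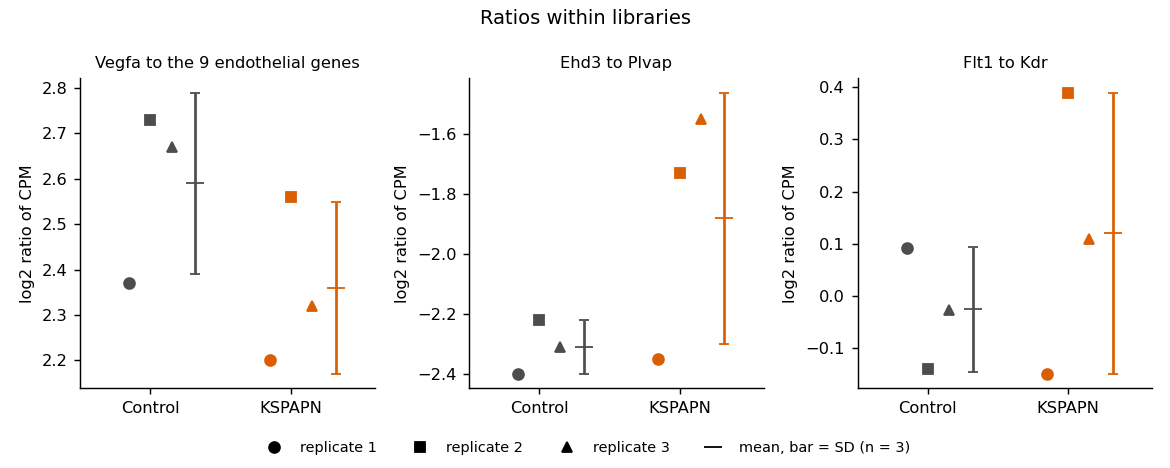
Log2 ratios of CPM inside each library (vertical axis) for *Vegfa* against the mean of the 9 endothelial genes, *Ehd3* against *Plvap* and *Flt1* against *Kdr*, in Control and KSPAPN. Points are libraries and bars the mean and SD. The groups overlap in all 3 panels.

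Genes with the pattern nearest to that of *Pecam1* and of *Vegfa* were looked up among 12248 genes with a mean of at least 1 FPKM, by the root mean square difference of centred log2 CPM over the 6 libraries. For *Pecam1* these were *Frg2f1* (0.0258), *Hs3st3b1* (0.0434) and *Dnmt1* (0.0492), and its own root mean square deviation was 0.17. Of the other 9 genes *Cdh5* lay nearest to *Pecam1*, at 0.05, and *Tek* next, at 0.0623. *Vegfa* was the farthest of the 10 from *Pecam1*, at 0.23, followed by *Plvap* at 0.217 and *Ehd3* at 0.171. For *Vegfa*, with its own deviation of 0.123, the nearest genes were *Wdr45* (0.0197), *Aaas* (0.0304) and *A630052C17Rik* (0.0323), and the nearest of the other 9 genes was *Emcn* at 0.184. With 6 libraries such a likeness is a description of these pools.

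The other VEGF ligands and receptors were examined beside *Vegfa*. Of 7 genes 6 had enough counts, 2 with a higher and 4 with a lower fitted level in KSPAPN, and 0 passed at either the adjusted or the unadjusted threshold by edgeR or DESeq2. *Vegfb*, a ligand of VEGFR1, was at 33.3 ± 3.64 against 27.8 ± 3.74 FPKM (log2 fold change -0.25, SE 0.12, adjusted p = 0.305 by edgeR), and its log2 fold change was 0.055 with the GC and length trend removed. *Vegfc*, the ligand of lymphatic growth, was at 1.51 ± 0.244 against 1.04 ± 0.212 FPKM (-0.53, SE 0.26, adjusted p = 0.313 by edgeR). *Nrp1*, the coreceptor neuropilin 1, was at 4.70 ± 0.507 against 4.19 ± 0.351 FPKM.

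Around *Tek*, 5 of 6 angiopoietin and Tie genes were tested, 4 with a higher and 1 with a lower fitted level, and 0 passed at the adjusted or the unadjusted threshold by edgeR or DESeq2. *Angpt2*, the context-dependent antagonist of TIE2, was at 5.31, 5.05 and 4.39 FPKM in Control and at 5.49, 6.18 and 6.12 FPKM in KSPAPN. Its groups did not overlap, yet the log2 fold change of 0.28 (SE 0.13) had an unadjusted p of 0.0519 and an adjusted p of 0.273 by edgeR. *Angpt1*, the agonist, was at 1.79 ± 0.279 against 2.03 ± 0.35 FPKM. *Tie1*, an orphan receptor that pairs with TIE2, was at 7.55 ± 1.38 against 7.33 ± 1.53 FPKM (log2 fold change -0.035, and 0.051 with the GC and length trend removed).

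Around *Eng*, 14 receptors, SMADs and ID genes of BMP9 and TGF-β signalling were tested, 5 with a higher and 9 with a lower fitted level, and edgeR called 0 at the adjusted threshold and 2 higher and 1 lower at the unadjusted one. *Id3*, a target of BMP signalling, was at 18.9, 17.1 and 20.3 FPKM in Control and at 14.6, 13.4 and 13.1 FPKM in KSPAPN, without overlap. Its log2 fold change was -0.45 (SE 0.11, adjusted p = 0.0687 by edgeR and 0.0246 by DESeq2). *Bmpr2*, the type II receptor of BMP9, was at 3.83, 4.47 and 3.86 FPKM in Control and at 4.88, 5.54 and 5.23 FPKM in KSPAPN, also without overlap. Its log2 fold change was 0.37 (SE 0.095, adjusted p = 0.0716 by edgeR and 0.0313 by DESeq2), and the third gene at the unadjusted threshold was *Tgfbr1* (0.27, SE 0.094, adjusted p = 0.165 by edgeR). With the GC and length trend removed, the log2 fold change was -0.25 for *Id3* (adjusted p = 0.202 by edgeR), 0.21 for *Bmpr2* (0.174) and 0.12 for *Tgfbr1* (0.471). With total counts as the only scaling, *Bmpr2* had an adjusted p of 0.0381. *Smad6*, an inhibitor of the pathway, was at 4.16 ± 1.15 against 3.01 ± 0.71 FPKM and *Id2* at 80.9 ± 19.8 against 71.0 ± 3.63 FPKM. Epithelial cells express *Id2*, *Id3*, *Bmpr2* and *Tgfbr1* too, so their values are not those of endothelium alone.

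The 21 other genes of endothelium were examined beside the 9. Their fitted levels were higher for 10 and lower for 11, with a median log2 fold change of -0.026, and their summed level was 70.7 to 92.6 FPKM in Control and 76.8 to 93.1 FPKM in KSPAPN. edgeR and DESeq2 called 0 at the adjusted threshold, and edgeR gave 1, *Myct1*, at the unadjusted one. *Myct1*, a membrane protein of endothelium, was at 1.08 ± 0.108 against 1.65 ± 0.414 FPKM (0.62, SE 0.26, adjusted p = 0.228 by edgeR). *Egfl7* (11.3 ± 1.44 against 10.9 ± 1.33 FPKM) and *Esam* (10.1 ± 1.47 against 9.55 ± 0.191 FPKM), the most abundant of the list, overlapped between the groups, and both signs turned with the GC and length trend removed (0.13 and 0.086). *Nos3*, the endothelial nitric oxide synthase, was at 1.66 ± 0.456 against 1.30 ± 0.494 FPKM (-0.34, SE 0.31, adjusted p = 0.604 by edgeR).

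Lists of vessel segments also held 0 genes at the adjusted threshold by edgeR. Of 5 tested genes listed for glomerular endothelium, 1 was higher and 4 lower in fitted level, 1 and 2 of them at the unadjusted threshold. *Mapt* was at 27.3 ± 3.34 against 21.1 ± 1.06 FPKM (-0.37, SE 0.10, adjusted p = 0.0925 by edgeR and 0.0375 by DESeq2), *Lpl* at 108 ± 27.3 against 63.7 ± 22 FPKM (-0.76, SE 0.24, adjusted p = 0.122) and *Tbx3* at 1.27 ± 0.195 against 1.68 ± 0.0813 FPKM (0.41, SE 0.16, adjusted p = 0.211). The median log2 fold change of the 5 was -0.30. It was the value of *Gata5*, a gene near the floor with 3 to 17 counts in a library (SE 0.61). Other kidney cells make *Mapt* and *Lpl* as well. Of 8 arterial genes 3 were higher and 5 lower, with 0 at the unadjusted threshold by edgeR or DESeq2, and the most abundant were *Cxcl12* (16.6 ± 2.87 against 14.7 ± 1.79 FPKM) and *Fbln5* (13.2 ± 3.11 against 12.3 ± 2.76 FPKM). *Efnb2*, which encodes the arterial ligand ephrin-B2, was at 2.32 ± 0.314 against 2.63 ± 0.251 FPKM.

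Of 6 genes of vasa recta and veins 4 were higher and 2 lower, with *Slc14a1*, the urea transporter of descending vasa recta, and *Nr2f2*, a transcription factor of veins, at the unadjusted threshold. *Slc14a1* was at 1.54 ± 0.199 against 2.13 ± 0.426 FPKM (0.48, SE 0.21, adjusted p = 0.247 by edgeR) and *Nr2f2* at 11.1 ± 0.395 against 13.1 ± 0.682 FPKM (0.24, SE 0.086, adjusted p = 0.167). *Aqp1*, the water channel that proximal tubule shares with descending vasa recta, was at 347 ± 33.1 against 292 ± 31.8 FPKM, and *Cd9*, a tetraspanin of many cell types, at 23.3 ± 2.43 against 26.6 ± 2.32 FPKM. Of 4 tested lymphatic genes 3 were higher and 1 lower, and 0 passed at the unadjusted threshold by edgeR or DESeq2. *Prox1* was at 1.58 ± 0.184 against 1.93 ± 0.184 FPKM and *Pdpn*, which podocytes also make, at 2.32 ± 0.389 against 2.97 ± 0.091 FPKM.

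The hypoxia-inducible factor (HIF) pathway, a known regulator of *Vegfa*, held genes that passed in opposite directions. Of 16 genes 9 were higher and 7 lower in fitted level, with 3 higher and 2 lower at the unadjusted threshold and 1 in each direction at the adjusted one. *Hif1a*, the oxygen-regulated subunit, rose from 13.4, 15.8 and 15.1 FPKM in Control to 18.6, 20.5 and 19.6 FPKM in KSPAPN, without overlap (log2 fold change 0.41, SE 0.092, adjusted p = 0.0451 by edgeR and 0.00791 by DESeq2). Its edgeR call was lost without any of Control replicates 1, 2 and 3 and KSPAPN replicates 2 and 3 (adjusted p = 0.0822 to 0.206) and with the GC and length trend removed (0.0606). *Car9*, a carbonic anhydrase and a classical HIF target, fell from 5.50, 4.48 and 3.61 FPKM to 1.42, 1.73 and 1.26 FPKM (-1.62, SE 0.22, adjusted p = 0.00741 by edgeR), with an adjusted p of 0.0505 without Control replicate 1.

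Other genes of the HIF list did not follow a single course. *Egln3*, the prolyl hydroxylase PHD3, was at 5.35, 6.22 and 3.95 FPKM in Control and at 3.26, 3.06 and 1.81 FPKM in KSPAPN (-0.92, SE 0.24, adjusted p = 0.0779 by edgeR and 0.00604 by DESeq2). *Vegfa* was lower in fitted level beside *Car9* and *Egln3*, while *Arnt*, the partner subunit (0.21, SE 0.088, adjusted p = 0.242 by edgeR), and *P4ha1*, a collagen prolyl hydroxylase (0.20, SE 0.084, adjusted p = 0.235), were higher. *Bnip3* was at 38.5 ± 5.08 against 42.3 ± 2.71 FPKM and *Ndrg1* at 292 ± 73.9 against 263 ± 23.5 FPKM. HIF1A is regulated mainly through protein stability, which RNA does not show.

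**Figure D5:**
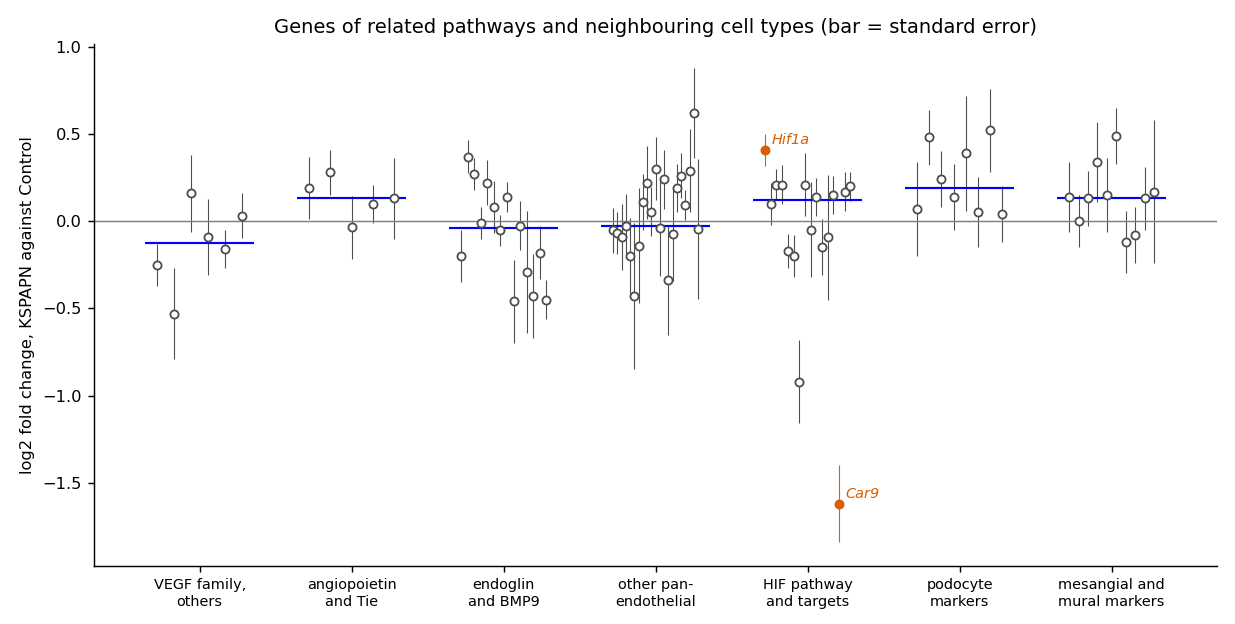
Log2 fold change of KSPAPN against Control (vertical axis) for single genes of the related lists (columns), with standard errors, the median of each list as a horizontal line, and filled points for genes that pass at an adjusted p under 0.05. *Hif1a* at 0.41 and *Car9* at -1.62 are the filled points, and the endothelial lists lie on both sides of 0.

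Markers of neighbouring cells were measured because *Vegfa* is made by epithelium and podocytes. Podocytes gave 8 of 8 genes higher in fitted level, with 1 at the unadjusted and 0 at the adjusted threshold by edgeR. *Podxl* was at 29.2 ± 5.44 against 34.5 ± 6.54 FPKM and *Ptpro* at 1.42 ± 0.475 against 2.02 ± 0.256 FPKM. Podocyte markers were higher and *Vegfa* lower in fitted level, and the part of podocyte RNA in the value of *Vegfa* was not tested. Mesangial, pericyte and smooth muscle markers were higher for 8 and lower for 2 of 10, with a summed level of 72.0 to 111 FPKM in Control and 92.7 to 112 FPKM in KSPAPN and 0 called at the adjusted threshold by edgeR, 1 at the unadjusted one.

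Tubular markers included the only genes called by edgeR among the cell type lists besides *Ttr*. Of 10 proximal tubule markers 1 was higher and 9 were lower in fitted level, with a median log2 fold change of -0.22. *Slc22a6*, an organic anion transporter (-0.46, SE 0.098, adjusted p = 0.0388 by edgeR), and *Miox*, which degrades inositol (-0.60, SE 0.12, adjusted p = 0.0268), fell. Of 11 markers of thick limb and distal nephron 4 were higher and 7 lower, with a median of -0.16. *Slc12a1*, the sodium, potassium and chloride cotransporter of the thick limb, rose (0.52, SE 0.11, adjusted p = 0.0437 by edgeR) and was the only one of the list on the higher side at the unadjusted threshold, with 4 on the lower side (*Cdh16*, *Slc12a3*, *Aqp3* and *Slc4a1*). *Slc4a1*, the anion exchanger of acid-secreting intercalated cells, was at -0.71 (SE 0.20, adjusted p = 0.0893 by edgeR and 0.0135 by DESeq2). Without Control replicate 1, Control replicate 2 or KSPAPN replicate 3 the calls of *Slc22a6*, *Miox* and *Slc12a1* were lost (adjusted p = 0.0777 to 0.193), those of all 3 also without KSPAPN replicate 2 (0.0628 to 0.0960) and those of *Slc22a6* and *Slc12a1* without Control replicate 3 (0.0819 and 0.0744). With the GC and length trend removed the adjusted p was 0.0748 for *Slc12a1* and 0.0797 for *Miox*, whose log2 fold change was then -0.39, and with total counts as the only scaling it was 0.0521 for *Slc22a6*. The part of tubular RNA in the value of *Vegfa* was not tested.

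Blood, immune and adipose cells were also followed. Of 7 tested leukocyte markers 3 were higher and 4 lower, of 5 tested erythrocyte and platelet genes 4 and 1, and of 2 tested adipocyte markers 1 and 1, with 0 at the unadjusted threshold by edgeR or DESeq2 in each list. Adipocyte markers summed to between 0.684 and 1.84 FPKM in all libraries, and 3 of the 6 had a library at 0 counts. Hepatocyte markers were tested because of the word liver in the labels. Of 5 tested 2 were higher and 3 lower, and *Ttr*, which encodes transthyretin, fell from 114 ± 39.7 to 50.7 ± 12.6 FPKM (-1.17, SE 0.25, adjusted p = 0.0388 by edgeR), a call lost without Control replicate 1, Control replicate 2 or KSPAPN replicate 3 (adjusted p = 0.109 to 0.175) and with total counts as the only scaling (0.0567).

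The adiponectin receptor of endothelium was low in whole kidney. *Cdh13*, which encodes T-cadherin, was at 0.375, 0.282 and 0.360 FPKM in Control and at 0.520, 0.385 and 0.412 FPKM in KSPAPN. The KSPAPN libraries were all above the Control libraries, and the log2 fold change of 0.38 (SE 0.23) had an adjusted p of 0.403 by edgeR.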

How the data were processed

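RNA from whole kidneys was sequenced in 3 Control and 3 KSPAPN libraries after oligo(dT) enrichment. The authors deposited raw counts of reads per gene, without normalization, and FPKM, scaled by gene length and library size. The submitters' processing notes name STAR 2.5, TopHat, HTSeq 0.6.1, DESeq2 and edgeR without their roles. Build, annotation and strand setting: not given in the sources used here. Samples were grouped by their labels. Coordinates are those of GENCODE M21 (GRCm38), matched by Ensembl identifier for 54495 of 54532 genes.

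Counts were tested with edgeR 4.0.16 in R 4.3.3 (TMM factors, minimum count 10 and total 15, two-sided quasi-likelihood test, Benjamini-Hochberg over 16017 genes). FPKM were used for levels and in the limma fits. Ratios were compared with exact permutation tests over 20 arrangements. Alternatives were DESeq2 1.42.0, limma 3.58.1 on log2(FPKM + 1) and log2(FPKM + 0.1), other scalings, no filter, a GC and length trend (splines of 5 degrees of freedom, genes with mean log2 CPM above 3), replicate number as a block and each library left out. The same trend for the ratios was added after seeing the data. The methods were tested on simulated data. Nothing says that libraries came from separate cages or preparations, so p-values measure the spread between these pools. Reads carry no molecular identifiers.

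The 10 genes and the lists were chosen with earlier results of these data known. Genes of the lists are named where called, among the 2 most abundant, or among the 2 with the largest log2 fold change at a mean of at least 1 FPKM, and those of cell types other than endothelium and podocytes only where called. *Bmpr2*, *Tgfbr1*, *Nr2f2*, *Arnt*, *P4ha1*, *Cdh16*, *Slc12a3*, *Aqp3*, *Slc4a1*, *Gata5*, *Pi16*, *Mmrn1*, *Kap* and *Alb* were named after their values were seen. The values of 1 gene of the lists are not reported here.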

Additional observations from a re-analysis of the deposited data

How the results depend on the processing

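None of the 10 genes was called in any of the alternatives, and their lowest adjusted p lay between 0.0833 and 0.503. The number of genes called in the whole table, 424 with edgeR, moved more. It was 266 with total counts as the only scaling, 1339 without a filter, 929 with the replicate block, 128 and 119 with limma on log2(FPKM + 1) and log2(FPKM + 0.1), 977 with DESeq2, and between 39 (without Control replicate 1) and 733 (without KSPAPN replicate 1) with 1 library left out. It was 125 without Control replicate 2 and 65 without KSPAPN replicate 3. The cause was not tested. Of 867 alternatives over all results, 773 were scored the same, 45 weaker, 24 stronger and 25 turned in direction. Single genes were scored by direction and side of the adjusted threshold. Counts of calls were scored the same within 1.5-fold, and the median of the 10 genes within 0.182 on the log2 scale. The ratios were scored by direction and by p under 0.05, which their permutation test cannot reach, so only a turn in direction could change their score.

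With total counts only, the log2 fold change turned for *Eng* (0.0085), *Tie1* (0.036) and *Egfl7* (0.016). With the GC and length trend removed it turned for *Flt1* (-0.0062), *Emcn* (-0.034), *Eng* (0.037), *Vegfb* (0.055), *Tie1* (0.051), *Egfl7* (0.13) and *Esam* (0.086). With each library left out it ranged from -0.18 to 0.067 for *Kdr*, -0.089 to 0.16 for *Flt1*, -0.0097 to 0.12 for *Emcn*, -0.20 to 0.07 for *Eng*, -0.17 to 0.13 for *Tie1*, -0.14 to 0.044 for *Egfl7*, -0.13 to 0.056 for *Esam*, -0.28 to 0.082 for *Fbln5* and -0.25 to 0.083 for *Ndrg1*. The cause was not tested.

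The replicate numbers were not used as a pairing in the main test, and whether they pair the libraries was not settled. Deviations of libraries with the same number correlated weakly, at 0.0537, 0.154 and 0.173. Every library correlated best with its own number, a hint from the data and not from the design. The replicate block moved the number of calls from 424 to 929 and left 0 of the 10 genes called, with an adjusted p of 0.0833 for *Plvap* and 0.124 for *Vegfa*. With 3 pools a group, changes within the intervals of the 10 genes remain compatible with these counts.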
